A study of Homo sapiens with 4 samples.

Results

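The costimulatory and checkpoint ligands are surface molecules through which a B cell engages a T cell. They were chosen by symbol from the normalized expression values: CD80, CD86, ICOSLG, CD40, CD83, CD58, CD274 (PD-L1), PDCD1LG2 (PD-L2) and TNFRSF14 (HVEM), 9 genes of 25066 listed, and each was found once. Expression was measured by RNA sequencing in NUDUL1 cells, a human diffuse large B cell lymphoma line of the germinal center type that carries doxycycline-inducible Cas9 and the transduced thromboxane receptor Tbxa2r. The control group carried a control sgRNA and the GNA13-deficient group a sgRNA against GNA13, the gene of the G protein subunit Gα13, with 1 guide per genotype. Both groups were treated for 24 h with 10 nM U46619, a stable thromboxane A2 analog that activates Tbxa2r. Each genotype had 2 libraries, and no untreated cells were included, so every comparison is between genotypes under the ligand. The sources do not say whether the libraries of a genotype came from separate cultures, and p values then measure only the spread between these libraries, which may be technical. The total of mapped reads was 29209544 and 31537955 in the control libraries and 30141459 and 29685942 in the GNA13-deficient libraries.

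In log2 normalized reads, GNA13 mRNA was at 12.46 and 12.45 with the control guide and at 13.10 and 13.11 with the GNA13 guide. Its mRNA was thus not lower where the label gives the gene as disrupted, with a difference of 0.65 (SE, standard error, of 0.05, limma adjusted p = 0.00214), and every direction given here rests on the labels. Its level does not test the labels, since a small Cas9 lesion need not lower an mRNA and a pseudogene of GNA13 can share its reads. Neither point was tested here, nor was any cause of the higher level. The labelled cell type was checked against its markers. All 7 B cell identity genes were expressed in every library, with CD79B, a chain of the B cell receptor, between 14.11 and 14.33. The germinal center surface enzyme MME (CD10) was between 13.99 and 14.08 in all 4 libraries, whereas the germinal center regulators LMO2 and BCL6 were lower in the GNA13-deficient libraries, with values given at the end.

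A T cell needs a second signal beside its antigen receptor, and B7 proteins on the B cell supply it. CD80 and CD86 bind CD28, which activates, and CTLA4, which restrains. ICOSLG binds ICOS on follicular helper T cells, and CD40 receives CD40LG from them. CD58 binds CD2 and strengthens adhesion. PD-L1 and PD-L2 bind PDCD1 (PD-1) and dampen the T cell, and HVEM binds BTLA, CD160 and the cytokine LIGHT. CD83 is an activation marker that keeps CD86 and HLA class II on the surface by opposing the ubiquitin ligase MARCH1. In lymphomas of germinal center origin, TNFRSF14 and CD58 are known as recurrent targets of inactivating lesions, and CD274 and PDCD1LG2 lie side by side in a region that is amplified in some B cell lymphomas.

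Sequences are shown upstream of the ligands that differed most among those called (adjusted p under 0.05, below). The reason is that these genes are often described as targets of NF-κB, the transcription factor that CD40 activates. The sequences are the 250 bases before each transcription start, from RefSeq on GRCh38.p14, written 5′ to 3′ on the gene's strand. Matches to the NF-κB consensus on either strand are in capitals. A window existed for 7 of the 9 ligands, with CD86 and CD83 each having a pair of starts.
CD86 first start: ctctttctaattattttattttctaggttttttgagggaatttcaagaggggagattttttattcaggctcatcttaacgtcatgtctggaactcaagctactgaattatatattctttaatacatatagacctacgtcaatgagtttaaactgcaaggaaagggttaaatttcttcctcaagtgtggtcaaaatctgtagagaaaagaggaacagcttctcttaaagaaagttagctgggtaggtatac
CD86 second start: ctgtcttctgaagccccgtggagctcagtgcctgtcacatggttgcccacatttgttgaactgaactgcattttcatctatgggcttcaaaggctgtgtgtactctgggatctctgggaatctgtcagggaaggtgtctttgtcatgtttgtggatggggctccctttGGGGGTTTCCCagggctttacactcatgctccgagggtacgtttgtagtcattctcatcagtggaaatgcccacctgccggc
TNFRSF14: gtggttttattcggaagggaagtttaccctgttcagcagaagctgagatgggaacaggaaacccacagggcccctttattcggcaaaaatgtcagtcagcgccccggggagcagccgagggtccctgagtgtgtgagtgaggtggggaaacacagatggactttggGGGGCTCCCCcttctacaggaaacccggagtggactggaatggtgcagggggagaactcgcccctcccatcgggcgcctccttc
CD83 second start: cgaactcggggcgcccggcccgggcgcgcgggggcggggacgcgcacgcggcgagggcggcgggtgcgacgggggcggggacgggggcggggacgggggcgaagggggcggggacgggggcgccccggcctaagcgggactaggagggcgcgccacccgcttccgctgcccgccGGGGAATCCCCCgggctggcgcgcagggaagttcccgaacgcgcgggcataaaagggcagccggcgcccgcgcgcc
On the plus strand these windows are chr3:122055112-122055361, chr3:122077534-122077783, chr1:2556121-2556370 and chr6:14117522-14117771. The consensus matched in the second window of CD86, in that of TNFRSF14 and in the second window of CD83, as overlapping matches in CD86 and CD83. The consensus was absent from the first windows of CD86 and CD83, of which that of CD83 is not shown. It matched in none of the windows of CD58, CD80, CD274 and ICOSLG, and of all 35116 windows 5.21% held it. The match was thus present upstream of ligands that moved in opposite directions. A STAT motif (TTCNNNGAA, in 6.57% of all windows) was found only in the CD274 window, as was an IRF motif, GAAA repeated after any pair of bases (3.02%). A FOXO motif (GTAAACA, 2.98%) was in none of the 9 windows. The short PU.1-type ETS motif GAGGAA, in 23.6% of all windows, lay in the first CD86 window and in that of CD58. A match describes the letters only, and both strands were read.

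Across all genes, limma called 5037 of 16945 genes tested at an adjusted p under 0.05, or 29.7%, with 13.1% higher and 16.6% lower in the GNA13-deficient libraries. All 9 ligands passed the filter on low values. Of these, 5 were called: CD40 and CD83 rose, and CD86, TNFRSF14 and ICOSLG fell. That is 55.6% of 9 genes, against the 29.7% of all genes. The median difference of the 9 was -0.35 on the log2 scale, against -0.02 for all genes tested, and without PDCD1LG2, which is at the floor of the measurement, the median of the other 8 was -0.12. The median of the 9 was 0.02 without control replicate 1 and -0.14 after median centring, so it gives no stable direction. When only genes of at least median abundance were tested, the median of the ligands left was 0.29. CD86 and TNFRSF14 were among those not tested there, so that value is not a median of the 9. The called ligands did not move one way. An exact permutation test of a single gene over 2 against 2 libraries cannot give a two-sided p below 0.333, so the calls rest on limma's estimate of the spread across all genes. In bulk libraries, fewer cells carrying a transcript and less of it per cell cannot be told apart.

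**Figure D1:**
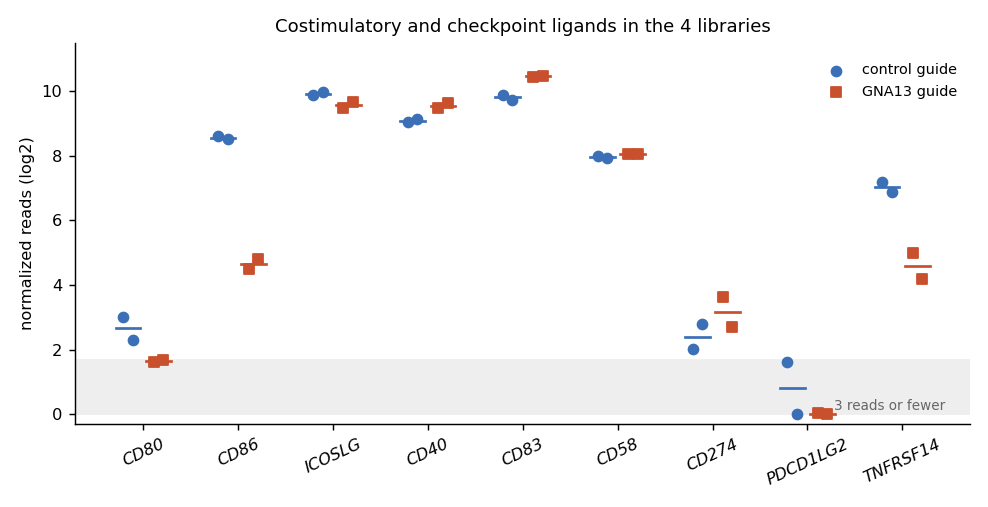
Log2 normalized reads of each ligand in the 4 libraries (circles, control guide; squares, GNA13 guide; line, mean of the 2 libraries), with the range of 3 reads or fewer shaded. CD86 and TNFRSF14 stand far lower with the GNA13 guide, while CD83 and CD40 stand higher and CD80, CD274 and PDCD1LG2 lie near the bottom of the scale in every library.

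CD86 (B7-2, Entrez 942; GRCh37 chr3:121774209-121839986, plus strand) changed most. Its log2 normalized reads were 8.61 and 8.51 in the control libraries and 4.50 and 4.81 in the GNA13-deficient libraries, from 385, 371, 22 and 26 recovered reads. Both GNA13-deficient libraries lay far below both controls. The difference was -3.91 (SE 0.20, 95% CI -4.42 to -3.40, limma adjusted p = 0.00108), a level 15.0-fold lower. Among the 16945 genes tested, 136 fell by more.

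CD80 (B7-1, Entrez 941; chr3:119243140-119278461, minus strand), which shares its receptors with CD86, was barely detected, with 8 and 5 reads in the controls and 3 in each GNA13-deficient library. The groups did not overlap, but the difference of -1.01 was not called (SE 0.43, limma adjusted p = 0.146). The ratio of summed reads, GNA13-deficient over control, was 0.485 with a 95% counting interval from 0.151 to 1.37, so no change was detectable at this depth. CD80 overlaps TIMMDC1 on the opposite strand, and the sources do not state whether reads were counted by strand.

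ICOSLG (Entrez 23308; chr21:45635265-45661329, minus strand), the remaining B7 ligand with an activating receptor, was at 9.87 and 9.98 in the controls and 9.48 and 9.67 in the GNA13-deficient libraries. The GNA13-deficient libraries were lower without overlap, by a small margin. The difference was -0.35 (SE 0.09, 95% CI -0.59 to -0.11, limma adjusted p = 0.0471). Relative to the median of each library's genes the difference was -0.14 and was not called (adjusted p = 0.376), and quantile normalization also ended the call (-0.30, adjusted p = 0.0631).

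TNFRSF14 (HVEM, Entrez 8764; chr1:2487078-2496821, plus strand) had the next largest fall after CD86. Its log2 values were 7.18 and 6.87 in the controls and 4.99 and 4.19 in the GNA13-deficient libraries, from 142, 119, 31 and 17 reads. The groups stood well apart, although the GNA13-deficient libraries differed from each other more than the controls did. The difference was -2.43 (SE 0.35, 95% CI -3.33 to -1.53, limma adjusted p = 0.00876), 5.39-fold lower. A total of 663 genes fell by more. Without the filter on low values it missed the threshold (limma adjusted p = 0.0897). An antisense transcript, TNFRSF14-AS1, overlaps the gene and had 8 reads in each control and 0 and 3 in the GNA13-deficient libraries. Without a stated strand setting, reads of the pair cannot be told apart where they overlap.

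CD83 (Entrez 9308; chr6:14117487-14137149, plus strand) rose. It was at 9.89 and 9.73 in the controls and 10.45 and 10.47 in the GNA13-deficient libraries, with no overlap. The difference was 0.65 (SE 0.08, 95% CI 0.45 to 0.85, limma adjusted p = 0.00532), 1.57-fold higher. CD83 and CD86, which are described as partners at the cell surface, thus went in opposite directions as transcripts.

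CD40 (Entrez 958; chr20:44746910-44758502, plus strand) also rose. Its values were 9.04 and 9.13 in the controls and 9.47 and 9.64 in the GNA13-deficient libraries. The groups did not overlap, and the difference was 0.47 (SE 0.09, 95% CI 0.24 to 0.70, limma adjusted p = 0.0192). Centring each library on its median left both rises in place, at 0.86 for CD83 and 0.68 for CD40. Without the filter on low values neither was called (limma adjusted p = 0.0564 for CD83 and 0.0995 for CD40), and without the variance trend CD40 was not (0.073).

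CD58 (LFA-3, Entrez 965; chr1:117057156-117113661, minus strand) was not called. It was at 7.98 and 7.92 in the controls and 8.04 and 8.07 in the GNA13-deficient libraries. The difference was 0.10 (SE 0.10, limma adjusted p = 0.497), and its 95% interval ran from -0.16 to 0.37. It was not called under quantile normalization (0.32, adjusted p = 0.0851) or median centring (0.31, adjusted p = 0.074) either, where the difference was larger.

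The PD-1 ligands were close to the limit of detection. CD274 (Entrez 29126; chr9:5450503-5470566, plus strand) had 4 and 7 reads in the controls and 12 and 6 in the GNA13-deficient libraries, and the groups overlapped. Its difference of 0.75 was not called (SE 0.52, limma adjusted p = 0.347), and the ratio of summed reads was 1.72 with a 95% counting interval from 0.768 to 4.03. With 1 library left out the difference ranged from 0.29, without GNA13-deficient replicate 1, to 1.22, without GNA13-deficient replicate 2. PDCD1LG2 (Entrez 80380; chr9:5510531-5571282, plus strand) had 3 and 0 reads in the controls and 1 and 0 in the GNA13-deficient libraries. Both groups were at or under a floor of 3 reads, so no fold is given. The intervals and the floor cover counting error only.

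**Figure D2:**
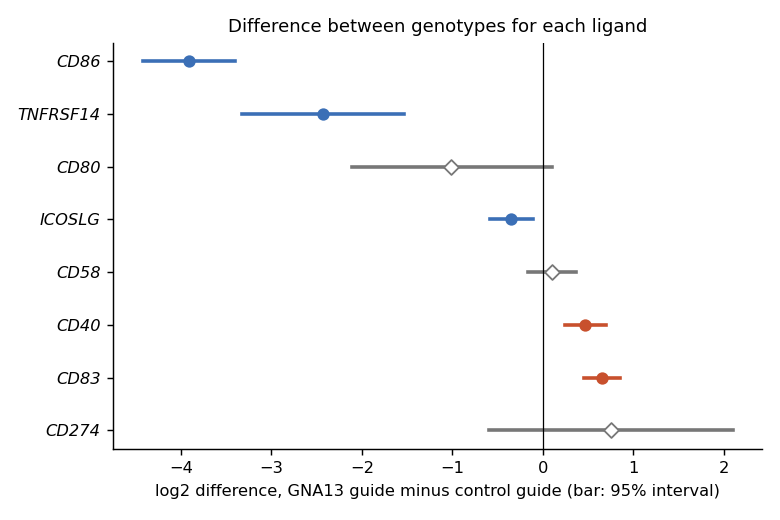
Log2 difference, GNA13 guide minus control guide, with 95% intervals from limma for 8 ligands (filled circles, called; open diamonds, not called; PDCD1LG2 is left out because its reads are at the floor). CD86 at -3.91 and TNFRSF14 at -2.43 lie far from 0, and the intervals of the genes with few reads, CD80 and CD274, are wide and cross 0.

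Levels can be compared between genes only per length. In normalized reads per kilobase of the longest coding transcript, mean ± SD of 2 libraries, the control order was CD83 at 386 ± 31.5, CD40 at 322 ± 13.7, CD58 at 186 ± 5.47, CD86 at 139 ± 6.95, ICOSLG at 137 ± 7.74 and TNFRSF14 at 76.8 ± 11.4. CD86 and ICOSLG overlapped in this order, as did CD80 at 2.39, CD274 at 1.51 and PDCD1LG2 at 0.628. In the GNA13-deficient libraries the order was CD83 at 606 ± 5.35, CD40 at 447 ± 36.1, CD58 at 200 ± 2.16, ICOSLG at 108 ± 9.79, TNFRSF14 at 14.7 ± 5.61 and CD86 at 9.29 ± 1.40. On this length CD86 thus went from the fourth place to the sixth, and among genes with a transcript length it moved from percentile 48.5 to 24.7. TNFRSF14 moved from percentile 39.5 to 27.4, CD83 from 68.5 to 77.2 and CD40 from 64.6 to 71.6. The order depends on the transcript taken. With the shortest coding transcript the control order was ICOSLG at 1124, CD40 at 742, CD86 at 667, CD58 at 626, CD83 at 389 and TNFRSF14 at 301. In the GNA13-deficient libraries it was then CD40 at 1029, ICOSLG at 884, CD58 at 673, CD83 at 611, TNFRSF14 at 57.7 and CD86 at 44.6. CD86 thus stood below TNFRSF14 in the GNA13-deficient libraries and above it in the controls with either length, while the first place did not hold.

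**Figure D3:**
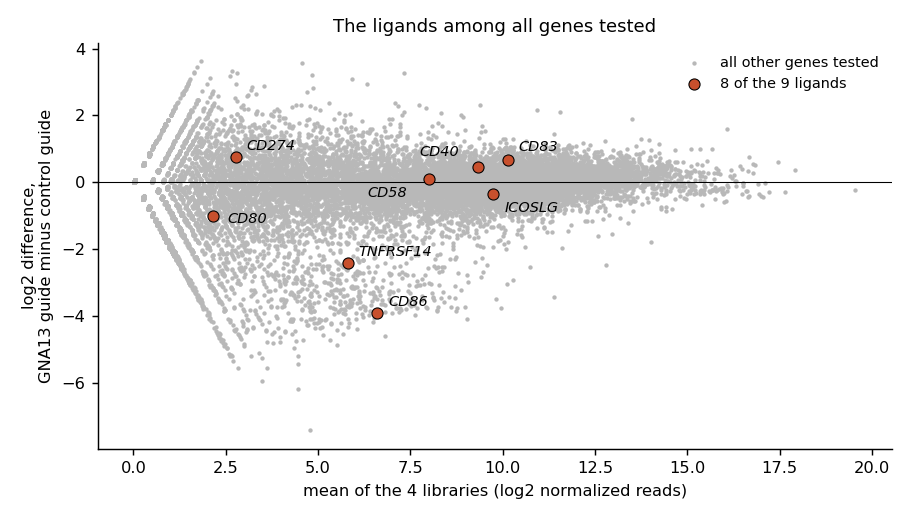
Log2 difference against the mean log2 value of the 4 libraries for each gene tested (gray), with 8 ligands marked. CD86 and TNFRSF14 sit in the broad group of genes of middle abundance that were lower with the GNA13 guide, and CD40, CD83, CD58 and ICOSLG sit within the dense band near 0.

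The genes whose values followed a ligand most closely over the 4 libraries were found by the root mean square distance of centered log2 values among 8473 genes with a mean at or above the median. Nearest to CD86 was CD9, a tetraspanin, at 11.80 and 11.91 in the controls and 7.99 and 8.17 in the GNA13-deficient libraries (distance 0.112). CASP4, an inflammatory caspase, came next (distance 0.138), at 10.42, 10.53, 6.70 and 6.81 in the same order. Nearest to TNFRSF14 were SATB1, a chromatin organizer of lymphocytes, at 9.51, 9.51, 7.30 and 6.66 (distance 0.132), and the glycine receptor subunit GLRA3 (distance 0.184). Nearest to CD83 were TMPO, a nuclear lamina protein (distance 0.012), and CCNE2, the G1/S cyclin E2 (distance 0.021). These are likenesses over 4 libraries and 2 groups, and many genes share such a pattern.

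The counter-receptors belong mostly to T cells, and most were absent. ICOS and CD2 were listed at 0 in every library, and CTLA4, CD28, PDCD1, CD40LG and TNFSF14 (LIGHT) were at 3 reads or fewer throughout. Of 11 genes in the file 7 were tested, with 2 lower and none higher, or 28.6% called, a share close to the 29.7% of all genes. The median of 0.04 had no stable sign, at -0.45 without GNA13-deficient replicate 2 and 0.25 after median centring. BTLA, the inhibitory receptor of HVEM that B cells also carry, was at 7.37 and 7.37 in the controls and 5.40 and 4.69 in the GNA13-deficient libraries. It fell by 2.32 (SE 0.30, limma adjusted p = 0.00646), so that the transcripts of both the ligand and this receptor were lower in the same libraries. RGMB, a bone morphogenetic protein co-receptor that binds PD-L2, was at 8.48 in both controls and 7.41 and 7.47 in the GNA13-deficient libraries, and fell by 1.03 (SE 0.11, adjusted p = 0.00370). CD160 (0.37, adjusted p = 0.525) and LTA (0.20, adjusted p = 0.716) were not called.

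In the other B7 and butyrophilin genes, 5 of the 12 tested were lower and none higher, or 41.7% called against 29.7% of all genes. Their median was -0.40, and with each library left out in turn it ranged from -0.66 to -0.26. BTNL9, a butyrophilin-like protein, was at 6.45 and 5.91 in the controls and 2.85 and 3.11 in the GNA13-deficient libraries. It fell by 3.20 (SE 0.35, limma adjusted p = 0.00439). C10orf54, which encodes the checkpoint protein VISTA, fell by 1.64 (SE 0.37, adjusted p = 0.0300), from 3.83 and 4.23 to 2.36 and 2.43. BTN2A1, which takes part in the recognition of phosphoantigens by γδ T cells, fell by 0.82 (SE 0.14, adjusted p = 0.0147). BTN3A1 and BTN3A3 were the other genes called. With each library centered on its median the same 5 genes were lower, with a median of -0.19, and with quantile normalization 4 were, without C10orf54, and the median was -0.09. CD276 (B7-H3) was listed at 0 in every library.

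Of other molecules through which B cells engage T cells, 4 of 15 tested genes were lower and 1 higher, with a median of -0.31, and the 33.3% called was close to the 29.7% of all genes. After median centring 3 were lower and 2 higher, with a median of -0.11, and ICAM1 was no longer called. CD27, the receptor of CD70 and a memory B cell marker, was at 9.16 and 9.34 in the controls and 6.58 and 6.78 in the GNA13-deficient libraries. It fell by 2.57 (SE 0.14, limma adjusted p = 0.00114), while its ligand CD70 was not called (0.39, adjusted p = 0.366). CD59, a complement inhibitor that also binds CD2, fell by 0.96 (SE 0.08, adjusted p = 0.00266). The semaphorin SEMA4D was the gene that rose, by 0.61 (SE 0.06, adjusted p = 0.00289), and its relative SEMA4A fell by 0.61. The abundant ligand CD48 was at 11.75 and 12.03 in the controls and 11.74 and 11.99 in the GNA13-deficient libraries.

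**Figure D4:**
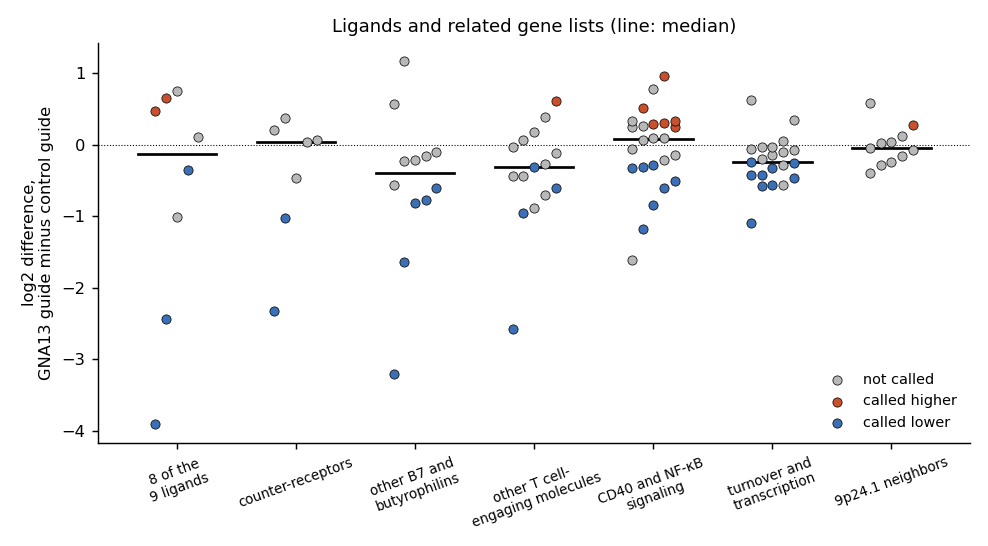
Log2 difference of each tested gene in the ligand set and 6 related lists, GNA13 guide minus control guide (points; line, median; ligands are left out of the other lists, and PDCD1LG2 is left out because its reads are at the floor). The ligands span from -3.91 to 0.75. In the values as deposited, the counter-receptors, the other B7 genes and the turnover and transcription regulators hold lower calls and no higher ones. After median centring the regulators had 3 lower and 2 higher. Of 11 tested 9p24.1 neighbors 1 was higher and 0 lower, or 9.09% called against 29.7% of all genes.

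CD40 signals through TRAF adaptors to NF-κB. Among 24 tested genes of this pathway and its usual targets, 6 were higher and 7 lower, with a median of 0.08, or 54.2% called against 29.7% of all genes. TRAF1, an inducible adaptor, fell by 1.18 (SE 0.27, limma adjusted p = 0.0312), and BIRC2 (cIAP1), a ubiquitin ligase of the receptor complex, fell by 0.84 (SE 0.10, adjusted p = 0.00487). The death receptor FAS rose by 0.96 (SE 0.23, adjusted p = 0.0353), from 6.33 and 5.88 to 6.97 and 7.16. TRAF2, TRAF3, NFKB2, RELB and NFKBIA rose by 0.24 to 0.51. The subunit REL fell by 0.61, and the kinase MAP3K14 (NIK), TRAF6, TNIP1 and ICAM1 were lower too. The transcripts of the pathway thus changed in both directions, as the ligands did. The split depended on the scaling, with 10 higher and 4 lower after median centring and 5 higher and 4 lower after quantile normalization, and the median moved to 0.28 after centring and to -0.005 without GNA13-deficient replicate 1. MAP3K14 and ICAM1 lost their calls under both scalings, TRAF1 and TRAF3 under quantile normalization, and TNIP1 under centring.

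Among genes that act on the surface turnover or transcription of the ligands, 9 of 21 were lower and none higher, with a median of -0.25, or 42.9% called against 29.7% of all genes. DEF6, a guanine nucleotide exchange factor that takes part in the trafficking of CTLA4 in T cells, fell by 1.09 (SE 0.09, limma adjusted p = 0.00246), from 8.88 and 8.94 to 7.81 and 7.83. IRF8 fell by 0.58 (adjusted p = 0.0153) and SPI1 (PU.1) by 0.56 (adjusted p = 0.0147), and both are transcription factors of B and myeloid cells. CMTM6, which keeps PD-L1 at the surface, fell by 0.25. MARCH8, a ubiquitin ligase that can remove CD86, fell by 0.43, while MARCH1 was at 4.49 and 4.88 in the controls and 3.50 and 4.75 in the GNA13-deficient libraries and was not called. Relative to the median of each library's genes, 3 genes were lower and 2 higher with a median of -0.04, and CMTM6, MARCH8, IRF8 and SPI1 were no longer called. DEF6, STAT3 and STAT6 stayed lower under that scaling. With quantile normalization 9 were lower and 1 higher.

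The neighborhood of the ligands on the chromosome was read after the values were seen. Within 1 Mb of CD86, 22 other genes were tested, with 3 higher and 2 lower and a median of 0.07. One of the lower genes was CSTA, a cysteine protease inhibitor 204109 bases away, at 8.41 and 8.61 in the controls and 4.90 and 5.06 in the GNA13-deficient libraries. Its difference of -3.53 (SE 0.18, limma adjusted p = 0.00110) was close in size to that of CD86. CCDC58, the nearest tested gene to the right of CSTA, was not called. ILDR1, the nearest to the left of CD86, was not called either. It had 3 and 5 reads in the controls and 4 and 0 in the GNA13-deficient libraries, too few to show a fall. Within 1 Mb of TNFRSF14, 4 of 21 tested genes were higher and 4 lower, with a median of -0.09. The corresponding counts were 5 higher and none lower of 31 near CD40, 1 and 1 of 7 near CD83, and 3 and 9 of 21 near ICOSLG, beside 13.1% higher and 16.6% lower over all genes. These windows were not tested against other windows. On chromosome 9, the genes flanking the PD-1 ligands were well expressed: C9orf46 (PLGRKT) was at 7.46 and 7.85 in the controls and 8.22 and 8.25 in the GNA13-deficient libraries, and KIAA1432 (RIC1) lay between 11.87 and 12.04. Neither was called (adjusted p = 0.0530 and 0.394), so the very low reads of CD274 and PDCD1LG2 were set between neighbors with many reads.

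**Figure D5:**
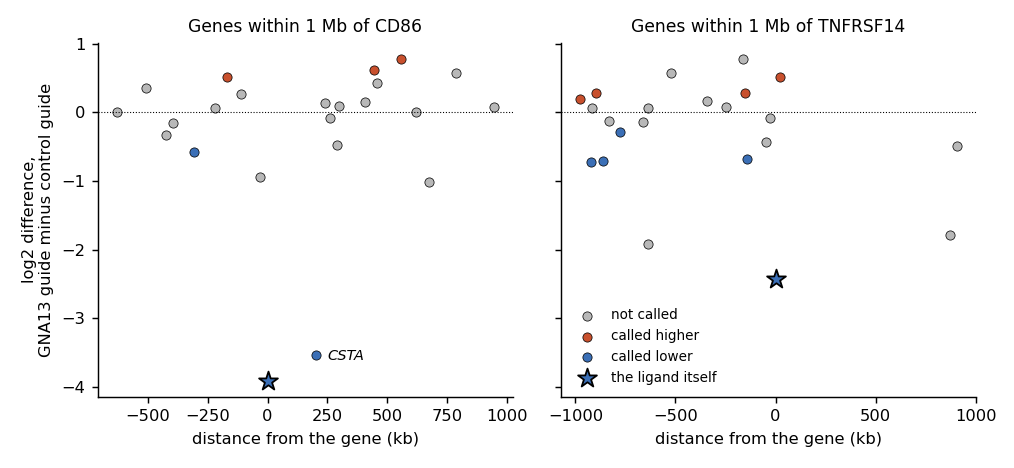
Log2 difference of the tested genes within 1 Mb of CD86 (left) and of TNFRSF14 (right), against their distance from the gene in kb, with the ligand as a star at 0. Near CD86, CSTA at -3.53 lies beside the ligand's -3.91 while the other genes stay within about 1 log2 unit of 0.

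Markers of other cell types moved with these results in part. Of the T and NK cell markers 4 of 10 were tested, with 2 lower and none higher, or 50% called against 29.7% of all genes. CD4, the most abundant, was at 6.87 and 7.43 in the controls and 3.62 and 2.43 in the GNA13-deficient libraries. CD8A, the other lower gene, had 5 reads in each control and 0 in both GNA13-deficient libraries. CD8A passed the filter only through the controls, so nothing is drawn from its call or from the 50% that counts it. The list's summed normalized reads were 153 and 203 against 33.9 and 12.9. CD3D, CD3E and CD7, which define T cells, were listed at 0 in every library. Of the myeloid and dendritic cell markers 6 of 9 were tested, with 1 higher and 1 lower, or 33.3% called, close to the 29.7% of all genes. Their sums were 165 and 157 against 492 and 570. CD1C, which some B cells also express, was the most abundant and rose by 3.28 (limma adjusted p = 0.00101), while LYZ fell by 2.53 (adjusted p = 0.00759). FCER1A was at 0 throughout, and CD14 and ITGAX were at 2 reads or fewer. Of the 5 stromal and endothelial markers 2 were tested and 1 was called, or 50% against 29.7% of all genes. It was PECAM1, the most abundant, which fell by 3.03 (adjusted p = 0.00393). The list sums were 122 and 117 against 28.7 and 28.0. The part of these markers in the ligand differences was not tested.

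Some genes of B cell state also differed. Of 8 germinal center genes LMO2 fell by 3.70 (SE 0.25, limma adjusted p = 0.00169), BCL6 fell by 2.49 and none rose. The list's median was -0.04, and the 25% called was below the 29.7% of all genes. After median centring 1 of the 8 was higher and the median was 0.17. Among 6 plasma cell genes 3 were lower and none higher: PRDM1 fell by 1.85, TNFRSF17 fell by 0.59 and IRF4 fell by 0.32. That is 50% called against 29.7% of all genes. After median centring PRDM1 alone of these was lower, and after quantile normalization 4 of the 6 were lower. Among the B cell identity genes MS4A1 (CD20) fell by 0.57. Whether the ligand differences go with a change of B cell state was not tested.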

How the data were processed

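Values for NUDUL1 cells treated with U46619 (2 control, 2 GNA13-deficient libraries) were used as deposited. The authors aligned reads of a stranded poly(A) library to hg19 with STAR; the submitters' processing notes also name HTSeq. The deposited values are normalized reads per gene on the log2 scale, with a row of mapped totals on a linear scale, used only for depth. The paper gives 151 bp reads and the labels 50 cycles; strand setting, annotation and normalization method are not given in the sources used here.

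On the linear scale all values of up to 400 reads (100%) were whole reads times a constant per library, within 0.2 reads; these recovered reads give the counts behind low values. Control replicate 2 lists no gene at 1 read, so its 0 can be 1 read. Replicates differed by more than sampling noise (chi-square per degree of freedom 11.7 and 11.4).

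Genes above 0 in at least 2 libraries were fitted with limma 3.58.1 in R 4.3.3 (lmFit, eBayes with trend, genotype only, 2 residual degrees of freedom), on the log2 values without a pseudocount, with Benjamini-Hochberg adjustment over all genes tested and a threshold of 0.05. The fit was tested on simulated data. Count ratios have 95% exact binomial intervals. Python 3.11.15, numpy 2.4.6, pandas 2.3.3, scipy 1.17.1 and matplotlib 3.10.9 were used. Positions and transcript lengths came from GENCODE on GRCh37, the assembly of hg19.

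The members and lists were chosen with earlier results of these data known. Named genes were the 9 members, GNA13, the counter-receptors, the flanking genes on chromosome 9 and defining markers at 0. From each other list the 3 genes with the largest called and non-overlapping difference were named. The 2 genes most like each of the 3 most changed members among those called were named too, out of genes with a mean at or above the median. Other genes named, and the chromosomal windows and promoter motifs, were chosen after values were seen. A gene that the rule includes is left out of the text. Symbols are as in the file, except MARCH1 and MARCH8 (listed as dates), TNFRSF14-AS1 (listed as LOC115110) and TIMMDC1 (C3orf1), which were matched by Entrez ID. Alternatives were testing all genes, testing only those at or above the median, pseudocounts of 1 and 10, quantile normalization, median centring, a replicate block, no variance trend, a robust prior, voom on recovered reads and leaving out each library.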

Additional observations from a re-analysis of the deposited data

How the results depend on the processing

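With 2 libraries per genotype, depth limits CD80, CD274 and PDCD1LG2 most. Without the filter on low values 1999 genes were called, with 0 ligands higher and 1 (CD86) lower; CD40 (0.47, adjusted p = 0.0995), CD83 (0.65, 0.0564), TNFRSF14 (-2.43, 0.0897) and ICOSLG (-0.35, 0.189) then missed the threshold. Without a variance trend 2718 genes and 1 higher ligand were called, with CD40 (0.47, 0.073) and ICOSLG (-0.35, 0.138) lost. ICOSLG also lost its call under quantile normalization (-0.30, 0.0631) and median centring (-0.14, 0.376), and a filter at the median left 1 lower ligand because CD86 and TNFRSF14 were then not tested. Centring moved the median of all genes from -0.02 to 0.18, and 69.1% of its 6235 calls were higher, against 44% of the 5037. Leaving out each library in turn left 1 residual degree of freedom and a lone library assumed to vary like the other group, and limma called 0 genes and 0 ligands either way, with 5257 to 5600 genes at an unadjusted p under 0.05. The differences then ranged from -4.07 to -3.76 for CD86, -2.83 to -2.03 for TNFRSF14, -0.44 to -0.25 for ICOSLG, 0.57 to 0.74 for CD83, 0.39 to 0.55 for CD40, -1.37 to -0.64 for CD80, 0.29 to 1.22 for CD274 and 0.65 to 0.66 for GNA13; PDCD1LG2, at the floor, turned to 0.02 without control replicate 1, and to -1.59 without control replicate 2. CD86 kept its call under every alternative that tested it with all libraries. Replicate numbers are shared between genotypes but no source pairs the libraries; deviations of same-numbered libraries correlated at 0.453 across 8473 genes, and a replicate block gave 6616 calls, 5011 of them among the 5037, and ended none of the ligand calls. Other causes were not tested.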
